A study of Mus musculus with 8 samples.

Results

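The core circadian loop was examined in the renal cortex of aged and young mice through the transcripts of 10 genes: Arntl, Clock, Npas2, Cry1, Cry2, Per1, Per2, Per3, Nr1d1 and Nr1d2. They were taken by symbol from a table of 22609 genes, and all 10 passed the filter on low counts. In aged mice Arntl and Npas2 rose and Nr1d2 fell, while Per1, Per2 and Nr1d1 differed widely from one aged mouse to the next. The RNA came from 4 aged (30 months) and 4 young (5 months) untreated male C57BL6 mice, with 1 library of whole cortex per mouse. These ages are those of the labels, and the methods of the study give a slightly older mean for the aged group. The libraries were depleted of ribosomal RNA and kept the strand of the transcript. The clock time at which tissue was taken is not given in the sources used here. Each mouse contributed 1 sample, so a change in the level of a transcript over the whole day and a change in its daily timing cannot be told apart in these data.

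The circadian loop is a transcriptional feedback circuit that runs in most cells, the tubules of the kidney included. CLOCK or its paralog NPAS2 pairs with BMAL1, the product of Arntl, and the pair activates genes through DNA sites called E-boxes. Among these genes are the Per and Cry repressors, which inhibit the pair, and Nr1d1 and Nr1d2, which encode the nuclear receptors REV-ERB alpha and beta. The REV-ERB receptors repress Arntl, Npas2 and other genes through ROR elements, so that E-box genes and ROR element genes peak at different times of day. In the kidney this circuit is known for daily rhythms in the transport of sodium and water.

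Promoter sequence was taken from RefSeq on GRCm38.p6, a later build than the counts, as windows from 250 bases before to 50 bases after each start site. Of the 10 genes 9 had at least 1 window, with 13 windows in all. Per2 had no window and was not searched. Windows were searched on both strands for the E-box CACGTG, the related CACGTT, the ROR element as TAGGTCA or TGGGTCA, the D-box as TTATGTAA or TTACGTAA, and the cyclic AMP element TGACGTCA. Since CACGTG reads the same on both strands, it is found once per site. The sequences below are matches found in these windows, on the strand of the gene, with the motif in capitals.
Arntl, ROR element, GRCm38.p6 chr7:113207531-113207557, plus strand: aggcagaaagTAGGTCAgggacggagg
Cry1, E-box, GRCm38.p6 chr10:85185099-85185124, minus strand: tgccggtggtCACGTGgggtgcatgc
Per1, E-box, GRCm38.p6 chr11:69098773-69098798, plus strand: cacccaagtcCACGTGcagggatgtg
Nr1d1, related E-box on the other strand, GRCm38.p6 chr11:98775390-98775415, minus strand: cacagatctcAACGTGccggctgctg
Per3, D-box, GRCm38.p6 chr4:151044806-151044833, minus strand: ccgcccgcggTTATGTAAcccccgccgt
Per3, D-box, GRCm38.p6 chr4:151044853-151044880, minus strand: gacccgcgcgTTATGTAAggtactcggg
The ROR element of Arntl began 31 bases after a start site, and the E-boxes of Cry1 and Per1 began 60 and 166 bases before one. The ROR element was in 1 of the 13 windows and in 6.45% of all 32851 windows, the E-box in 2 and in 7.15%, and the D-box in 1 and in 1.06%. The cyclic AMP element was in 0 of the 13 windows and in 1.79% of all windows. The related E-box was in 3 windows, of Cry1, Cry2 and Nr1d1, and in 4.68% of all windows. No window of Clock, Npas2 or Cry1 held a match to the ROR element. A match gives the letters in the window and does not show that a factor bound there.

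Each mouse had 14820804 to 19821429 read pairs on genes. Levels are given in CPM, which puts every library on the same total, after scaling by the trimmed mean of M-values (TMM). Changes are given as the log2 fold change of aged over young (log2 FC) with its standard error (SE). edgeR's quasi-likelihood test was fitted to 13944 genes, and a gene counted as changed if its Benjamini-Hochberg adjusted p was under 0.05 and its fold over 1.5. By this rule 2.06% of all genes changed, and 56.8% of these were higher in aged mice. Scaling to library size alone raised that share to 75.4% and moved the median log2 FC of all genes by 0.11. Of the 10 clock genes 3 changed, with Arntl and Npas2 higher and Nr1d2 lower in aged mice. Across all genes 1.17% were called higher and 0.889% lower. In the same 3 genes the aged and young mice did not overlap, as was the case in 18.9% of all genes. Over the 10 genes the median log2 FC was 0.18, beside 0.03 over all genes, and it turned to -0.11 without aged mouse 1. Leaving out any 1 young mouse left only Arntl past the thresholds, while the whole count of changed genes then fell to between 8 and 35.

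Of the markers of tubule segments, podocytes, endothelium and leukocytes, 40 could be tested. Of these 0 changed in edgeR and 8 had an unadjusted p under 0.05, as 25.5% of all genes did. With DESeq2 3 of them changed, beside 6.26% of all genes, and with limma-voom with sample quality weights 3 did, beside 3.46%. The 8 proximal tubule markers, Lrp2 and Slc34a1 among them, were the most abundant set in every mouse. Their summed level was 10078 CPM in aged mouse 1, 20529 to 23333 CPM in the other aged mice and 20276 to 24366 CPM in the young mice. Aged mouse 1 therefore lay apart from the rest in proximal tubule markers. Aged mouse 4 had the highest sum of leukocyte markers, 119.8 CPM against 40.4 to 73.7 CPM in the other 7 mice, and the lowest sum of podocyte markers, 306 CPM against 424 to 593 CPM. Their part in the results was not tested, and values that turn on either mouse are also given without it. In whole tissue, fewer cells of a type and less RNA per cell cannot be told apart.

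Arntl encodes BMAL1, the partner that both CLOCK and NPAS2 need to bind DNA. It lies on chromosome 7 of mm9, the build of all gene positions given here (120350979 to 120457636, plus strand). It is the core gene with a ROR element match in a promoter window, as 6.45% of all windows had. It measured 36.6, 37.4, 38.5 and 22.2 CPM in aged mice 1 to 4. The young mice had 5.36, 5.13, 4.28 and 5.55 CPM. Every aged mouse stood above every young mouse, and aged mouse 4, the mouse with the highest leukocyte markers, was the lowest of the aged group. Without it the log2 FC was 2.88. Aged mice averaged 33.7 ± 7.69 CPM (SD, n = 4), whereas young mice averaged 5.08 ± 0.559 CPM (SD, n = 4). Arntl had a log2 FC of 2.73 (SE 0.19, edgeR adjusted p = 0.00142), the smallest p of the 13944 genes. Under 16 other ways of fitting the counts it remained between 2.65 and 2.88, and the largest adjusted p was 0.0121 by edgeR, without young mouse 1.

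Npas2 encodes a paralog of CLOCK that can take its place beside BMAL1. It lies on chromosome 1 (39250576 to 39420079, plus strand). Its level was 64.1, 51.6, 26.1 and 17.4 CPM in aged mice 1 to 4, and 6.90, 6.51, 4.28 and 5.08 CPM in young mice 1 to 4. All aged mice were again above all young mice, but the aged mice themselves differed by up to 3.68-fold. Npas2 had a log2 FC of 2.80 (SE 0.41, edgeR adjusted p = 0.0206). Leaving out 1 young mouse gave adjusted p values of 0.0704 to 0.101 by edgeR, with log2 FC of 2.69 to 2.90. Without aged mouse 1 the log2 FC was 2.47 (adjusted p = 0.0145 by edgeR).

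Clock encodes the third activator of the loop and lies on chromosome 5 (76639992 to 76733817, minus strand). It measured 154, 131, 172 and 130 CPM in the aged mice and 136, 123, 124 and 126 CPM in the young mice. The groups overlapped, since only aged mice 1 and 3 exceeded every young mouse. Clock had a log2 FC of 0.20 (SE 0.10, edgeR adjusted p = 0.247). The ratio of Arntl to Clock counts lay between 0.171 and 0.286 in aged and between 0.0345 and 0.0441 in young mice. The 2 transcripts were thus present in a different proportion in every aged mouse than in any young mouse. Arntl alone separated the groups in the same way, and the proteins were not measured.

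**Figure D1:**
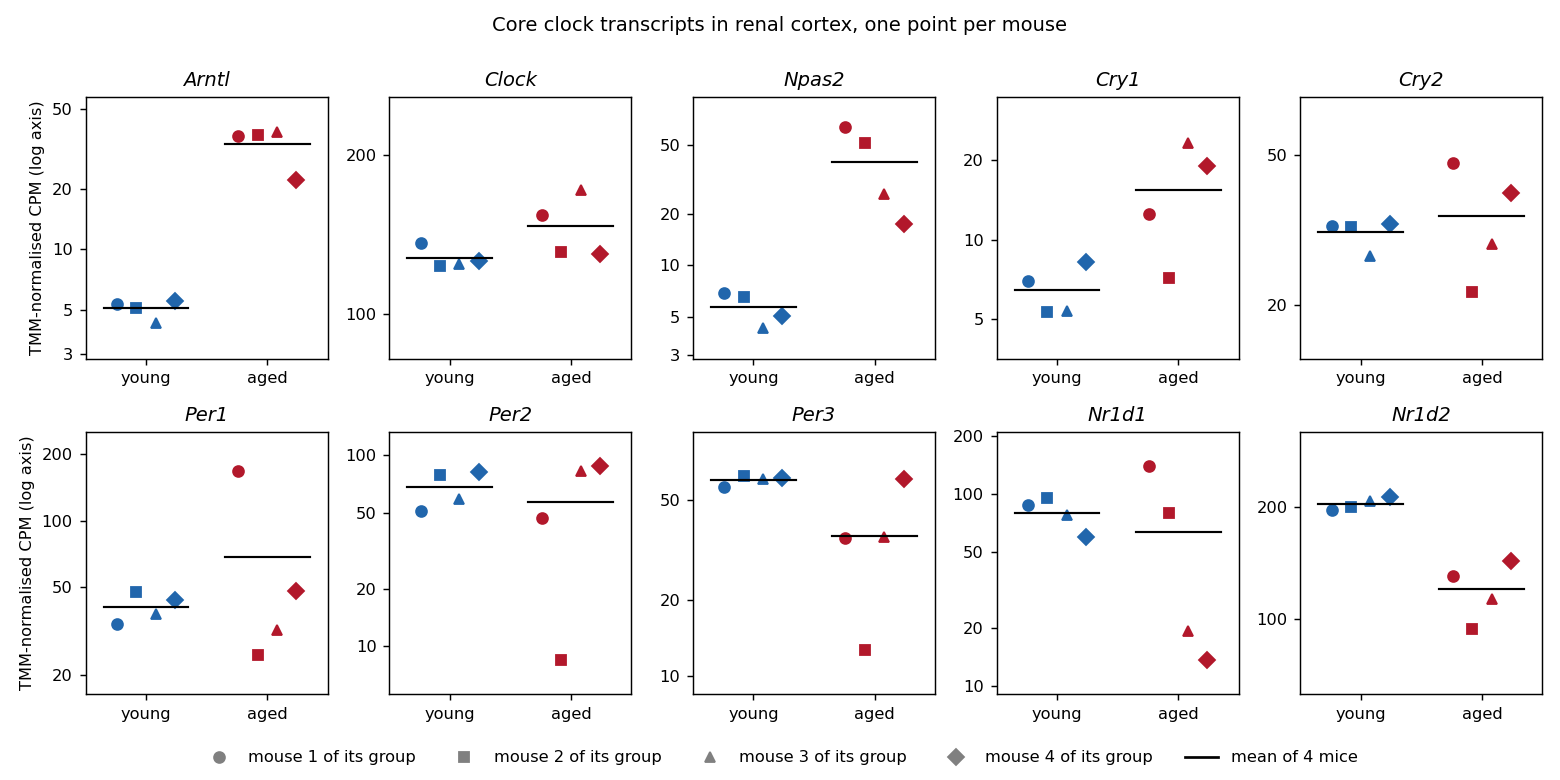
Level of the 10 core clock transcripts in each of 4 young (blue) and 4 aged (red) mice, in TMM-normalized CPM on a log axis. Each symbol is 1 mouse and the line is the group mean. Arntl and Npas2 are higher and Nr1d2 is lower in all aged mice, while the aged mice spread on both sides of the young mice in Per1, Per2 and Nr1d1.

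Nr1d2 encodes REV-ERB beta, a repressor of ROR element genes, on chromosome 14 (19036568 to 19071641, minus strand). Its levels were 130, 94.1, 113 and 143 CPM in aged mice 1 to 4 and 197, 200.4, 207 and 213 CPM in young mice 1 to 4. Every aged mouse lay below every young mouse, with aged mouse 2 the lowest. Nr1d2 had a log2 FC of -0.77 (SE 0.13, edgeR adjusted p = 0.0267). The adjusted p was between 0.0757 and 0.102 by edgeR when any 1 young mouse was left out, and 0.0578 without aged mouse 3. Its log2 FC stayed between -0.86 and -0.66 over the 16 other fits.

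Nr1d1 encodes REV-ERB alpha, the other repressor of this arm, on chromosome 11 (98629246 to 98636647, minus strand). It measured 140 CPM in aged mouse 1 and 79.2 CPM in aged mouse 2, but 19.4 CPM in aged mouse 3 and 13.7 CPM in aged mouse 4. The young mice had 86.9, 95.1, 77.8 and 59.6 CPM. Thus aged mouse 1 was above all young mice, aged mouse 2 was among them, and aged mice 3 and 4 were below all of them. The highest aged mouse had 10.2 times the level of the lowest, against 1.60 times in the young group. Nr1d1 had a log2 FC of -0.34 (SE 0.63, edgeR adjusted p = 0.755), and without aged mouse 1 it was -1.10 (adjusted p = 0.225 by edgeR). Without aged mouse 4 it was -0.0086 (adjusted p = 0.994 by edgeR). Nr1d1 shares 263 exonic bases with Thra on the opposite strand, and the authors counted by strand. Thra, a thyroid hormone receptor gene, measured 61.8, 61.1, 41.3 and 39.1 CPM in aged mice 1 to 4 and 36.7 to 41.8 CPM in young mice.

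Per1, Per2 and Per3 encode the PERIOD repressors, which enter the nucleus with the cryptochromes to inhibit the activators. Per1 (chromosome 11, 68908719 to 68923462, plus strand) had 168, 24.6, 32.0 and 48.1 CPM in aged mice 1 to 4. The young mice had 34.1, 47.5, 37.8 and 43.8 CPM. Aged mouse 1 stood far above the other 7 mice, and aged mice 2 and 3 stood below all young mice. Per1 had a log2 FC of 0.74 (SE 0.54, edgeR adjusted p = 0.405) with aged mouse 1 and -0.22 (adjusted p = 0.536 by edgeR) without it.

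Per1 is also a target of the glucocorticoid receptor. A list of 10 glucocorticoid response genes, Per1 included, summed to 3320 CPM in aged mouse 1, 559 to 947 CPM in the other aged mice and 732 to 797 CPM in the young mice. All 10 were highest in aged mouse 1. Across all genes tested, 28.4% were highest in that mouse. In edgeR 1 of the 10 genes changed, Zbtb16 (edgeR adjusted p = 0.0390), beside 2.06% of all genes. Zbtb16 did not pass without aged mouse 3 (edgeR adjusted p = 0.0575) or without any 1 young mouse (edgeR adjusted p = 0.0994 to 0.125). Without aged mouse 1 the list had 3 genes that changed, beside 444 of 14016 over all genes. They did not share a direction, as Fkbp5 was lower in aged mice (log2 FC -0.95, edgeR adjusted p = 0.0458). The median log2 FC of the list was then 0.17 in place of 0.85. The sources used here give no glucocorticoid level, and whether such a response had a part in the level of Per1 was not tested.

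Per2 (chromosome 1, 93312561 to 93355907, minus strand) measured 47.1, 8.46, 82.6 and 88.0 CPM in aged mice 1 to 4 and 51.2, 78.4, 59.2 and 82.1 CPM in young mice 1 to 4. Aged mouse 2 had the lowest level by far, aged mouse 1 was just below the young range and aged mice 3 and 4 were just above it. Per2 had a log2 FC of -0.26 (SE 0.55, edgeR adjusted p = 0.788), and it was 0.10 without aged mouse 2. Per3 (chromosome 4, 150377761 to 150418774, minus strand) had 35.3, 12.7, 35.8 and 60.6 CPM in the aged mice, and the young mice were within 56.3 to 62.4 CPM. Aged mice 1, 2 and 3 were below every young mouse and aged mouse 4 was within the young range. Per3 had a log2 FC of -0.74 (SE 0.36, edgeR adjusted p = 0.233). It was -1.10 (adjusted p = 0.0673 by edgeR) without aged mouse 4.

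Cry1 and Cry2 encode the cryptochromes, which bind the activators and block them. Cry1 (chromosome 10, 84594447 to 84647799, minus strand) measured 12.5, 7.16, 23.1 and 19.1 CPM in aged mice 1 to 4 and 6.97, 5.34, 5.37 and 8.27 CPM in young mice 1 to 4. Only aged mouse 2 fell within the young range. Cry1 had a log2 FC of 1.26 (SE 0.34, edgeR adjusted p = 0.0731). It passed the thresholds with DESeq2 (adjusted p = 0.00596), with library size as the only scaling (adjusted p = 0.0486 by edgeR) and without aged mouse 2 (adjusted p = 0.0432 by edgeR). Cry2 (chromosome 2, 92243803 to 92274200, minus strand) had 47.4, 21.7, 29.0 and 39.7 CPM in the aged and 32.4, 32.3, 27.0 and 32.8 CPM in the young mice. Its aged mice lay on both sides of the young mice, with a log2 FC of 0.15 (SE 0.22, edgeR adjusted p = 0.688) and of -0.05 without aged mouse 1. Cry2 shares 295 exonic bases with D930015M05Rik on the opposite strand, which averaged 0.441 CPM in aged and 0.377 CPM in young mice.

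**Figure D2:**
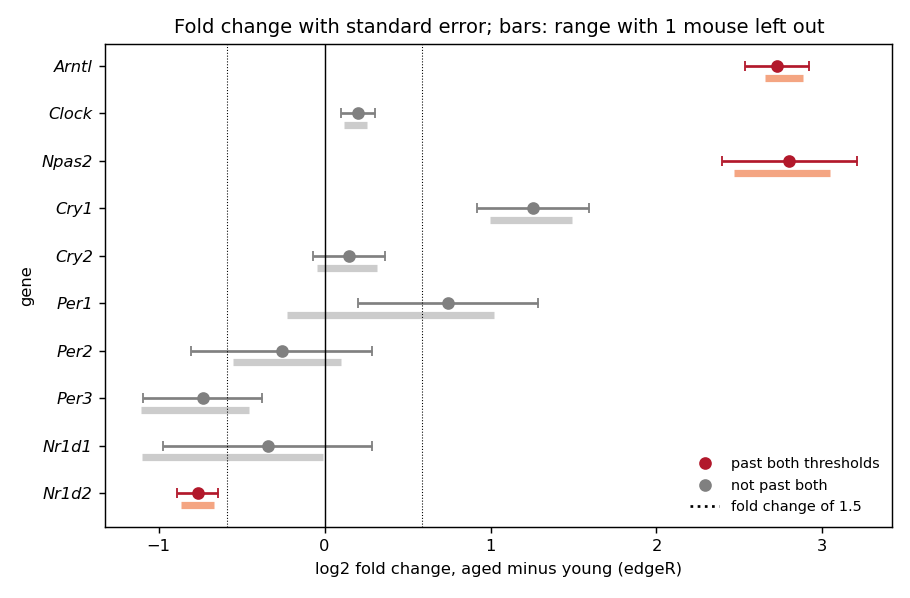
Log2 fold change of each core clock gene, aged minus young, from edgeR (points) with its standard error (whiskers). The thick bars give the range when each of the 8 mice is left out in turn, and dotted lines mark a fold change of 1.5. Arntl, Npas2 and Nr1d2 (red) are past both thresholds, and the bars of Cry2, Per1 and Per2 cross 0.

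Set side by side, the 4 aged mice had different combinations of these transcripts, while all of them were high in Arntl and Npas2 and low in Nr1d2. Aged mouse 1 combined the highest Per1, Nr1d1, Npas2 and Cry2 of the 8 mice. Aged mouse 2 had the lowest Per1, Per2, Per3, Cry2 and Nr1d2. Aged mice 3 and 4 combined the lowest Nr1d1 with the highest Per2 and Cry1. The ratio of Per2 to Nr1d1 counts was 0.337 in aged mouse 1 and 0.107 in aged mouse 2, but 4.26 in aged mouse 3 and 6.44 in aged mouse 4. In the young mice this ratio was between 0.589 and 1.38, so none of the aged mice had a ratio within the young range. The ratio of Per1 to Per2 counts was 3.57 and 2.91 in aged mice 1 and 2, 0.387 and 0.546 in aged mice 3 and 4, and 0.534 to 0.665 in young mice.

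**Figure D3:**
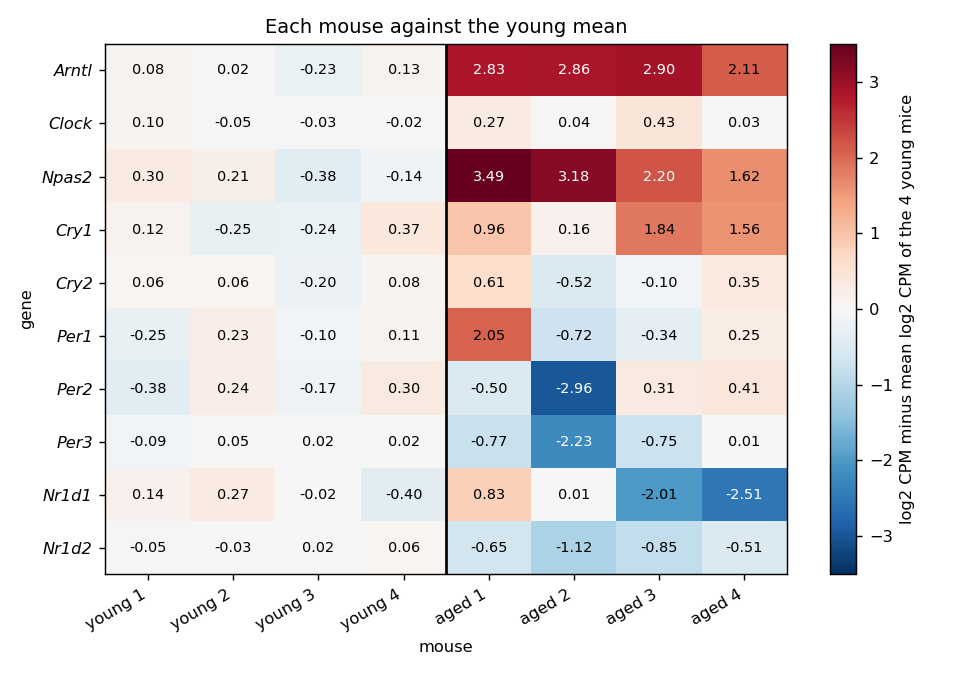
Difference of each mouse (columns) from the mean of the 4 young mice for each core clock gene (rows), in log2 CPM. Red is higher and blue is lower than the young mean. The young mice stay within 0.40 of their mean, whereas Nr1d1 runs from 0.83 in aged mouse 1 to -2.51 in aged mouse 4 and Per2 is at -2.96 in aged mouse 2.

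The standard deviation of log2 CPM among aged mice exceeded that among young mice by more than 2 times in all 10 clock genes, and in 50.7% of all genes tested. The ratio of the 2 standard deviations was 2.32 for Arntl, 4.82 for Per2, 5.47 for Nr1d1, 5.73 for Per1 and 14.6 for Per3. Per3 had a small young SD of 0.064, and its aged SD of 0.94 was below those of Per1, Per2 and Nr1d1. The median ratio was 4.27 over the 10 genes and 2.03 over all genes. Among aged mice, Nr1d1 (SD 1.60) and Per2 (SD 1.57) varied more than 99.3% of all genes, and Per1 (SD 1.23) more than 98.2%. Among young mice their standard deviations were 0.29, 0.33 and 0.21. Clock (SD 0.20) and Nr1d2 (SD 0.26) had an aged spread near the median of all genes, which was 0.25. Their young SDs were 0.066 and 0.050, below the median of 0.12 over all genes. Without aged mouse 1 all 10 genes still exceeded a ratio of 2, as did 34.2% of all genes. Without aged mouse 2 the count was 8 of 10, beside 51.0% of all genes.

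**Figure D4:**
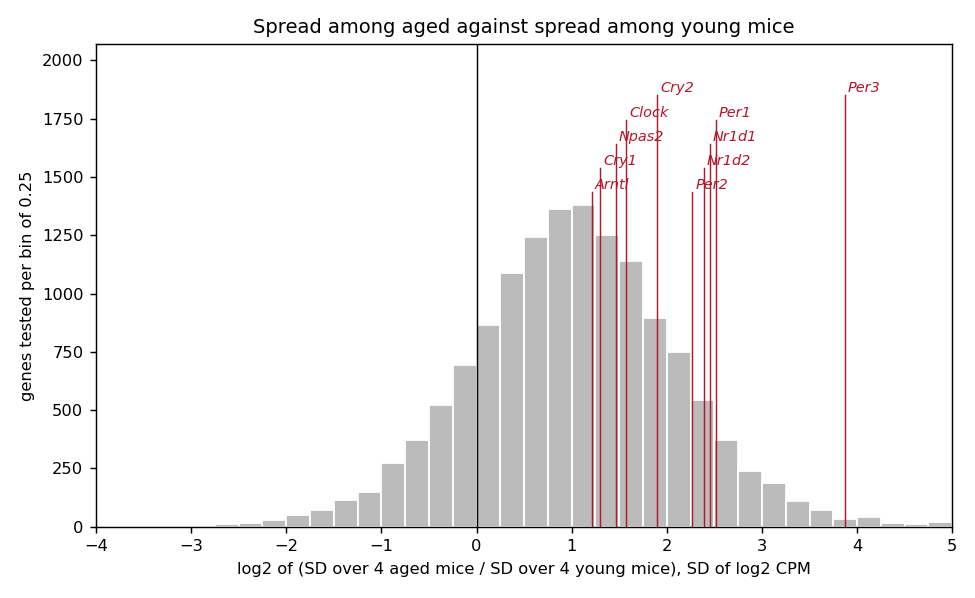
Distribution over all genes tested of the log2 ratio of the standard deviation among 4 aged mice to that among 4 young mice, in bins of 0.25, with the 10 core clock genes marked by red lines. Values past 5 are placed in the last bin. All 10 genes lie to the right of a log2 ratio of 1, and Per3 lies farthest right.

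Relations between genes were examined on deviations from the mean of each age group, because the age groups form separate clusters in Arntl, Npas2 and Nr1d2. Over the 8 mice, 45 pairs were compared with an exact permutation of mice within groups (two-sided, 576 arrangements). After Benjamini-Hochberg adjustment over the 45 pairs 0 pairs passed 0.05, and 4 pairs did so before adjustment with Pearson's r and 2 with Spearman's rho. Per2 and Per3, which encode partners in one repressor complex, had a Pearson r of 0.94 (exact permutation p = 0.00521, adjusted p = 0.234) and a Spearman rho of 0.90 (exact permutation p = 0.00694, adjusted p = 0.312). Without the 2 mice farthest from the median of Per2, aged mice 2 and 4, r was 0.81. Npas2 and Nr1d1 had an r of 0.95 (exact permutation p = 0.0226, adjusted p = 0.391) and a rho of 0.95 (exact permutation p = 0.0486, adjusted p = 0.696), and r was 0.85 without aged mice 1 and 4. Per3 and Nr1d2 had an r of 0.93 (exact permutation p = 0.0260, adjusted p = 0.391) and a rho of 0.57 (exact permutation p = 0.229, adjusted p = 0.750). Without aged mice 2 and 4 that r was 0.27, so the relation rested on them. Cry1 and Per2 had an r of 0.88 (exact permutation p = 0.0347, adjusted p = 0.391) and a rho of 0.76 (exact permutation p = 0.0729, adjusted p = 0.696), with an r of 0.55 without aged mice 2 and 3. The lowest r was -0.73, for Cry1 and Nr1d1 (exact permutation p = 0.227, adjusted p = 0.804), with a rho of -0.79 (exact permutation p = 0.108, adjusted p = 0.696) and an r of -0.71 without aged mice 2 and 3.

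**Figure D5:**
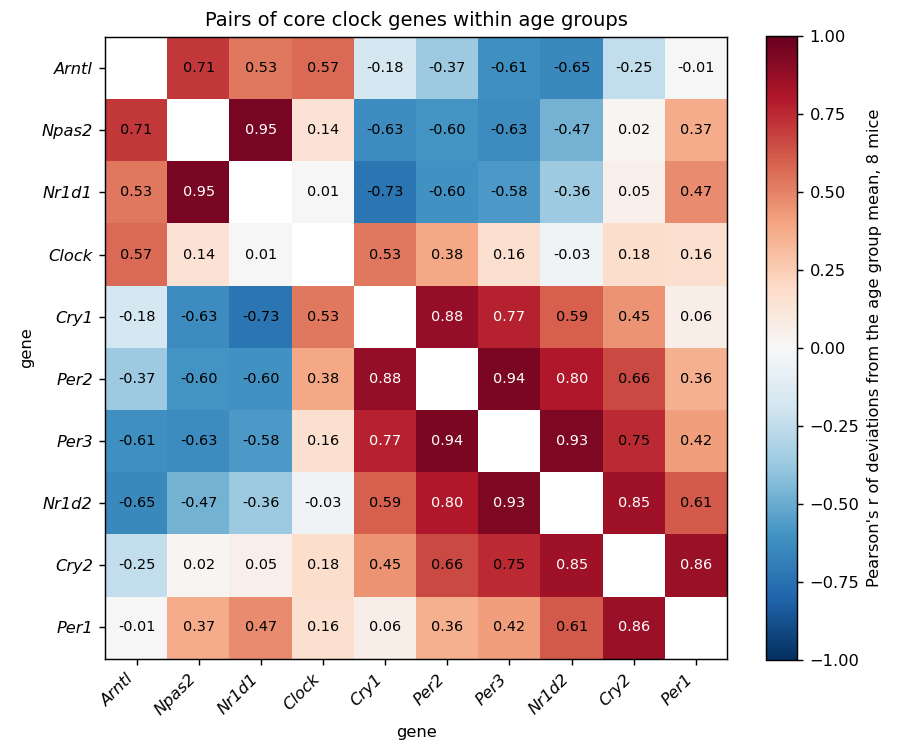
Pearson's r between pairs of core clock genes over 8 mice, computed on log2 CPM after subtracting the mean of each age group. Red cells are positive and blue cells negative. Cry1, Per2, Per3 and Nr1d2 have r from 0.59 to 0.94 with each other, and Npas2 and Nr1d1 are negative with each of them. Among those 4 genes r was 0.63 to 0.96 in the aged mice alone and -0.36 to 0.82 in the young mice alone. Without the 2 mice farthest from the median it was -0.17 to 0.81. No pair passed the adjusted threshold.

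The other genes of the circuit were taken as 26 outputs, side-loop factors, clock protein kinases and ligases, and clock-controlled enzymes. In edgeR 1 of them was higher and 2 were lower in aged mice, beside 1.17% and 0.889% of all genes. Of the 26 genes 13 had an unadjusted p under 0.05, beside 25.5% of all genes. Nfil3, a ROR element gene that encodes a repressor of D-box sites, had 13.3, 18.5, 22.9 and 25.6 CPM in aged mice 1 to 4, while the highest young mouse had 4.42 CPM. Nfil3 had a log2 FC of 3.07 (SE 0.37, edgeR adjusted p = 0.0125), which did not pass without young mouse 1 (adjusted p = 0.0632) or young mouse 4 (adjusted p = 0.0633). Dbp, an E-box gene that encodes an activator of D-box sites, had 23.1, 9.30, 9.35 and 25.6 CPM in aged mice 1 to 4 and at least 97.0 CPM in each young mouse. Dbp had a log2 FC of -2.63 (SE 0.33, edgeR adjusted p = 0.0141), which did not pass without young mouse 1, 3 or 4 (adjusted p = 0.0539 to 0.0633). Each aged mouse thus had more Nfil3 and less Dbp than any young mouse. Por, which encodes the electron donor of cytochromes P450, averaged 447 ± 18.7 CPM in young and 257 ± 54.3 CPM in aged mice (SD, n = 4 each). Por had a log2 FC of -0.80 (SE 0.14, edgeR adjusted p = 0.0323), which did not pass without aged mouse 2 or 3 or any 1 young mouse (adjusted p = 0.0593 to 0.103). The 10 kinases, ligases and partners, such as Csnk1d and Gsk3b, included 0 that changed in edgeR and 3 with an unadjusted p under 0.05, near the 25.5% of all genes. With DESeq2 1 of them changed, and with weighted limma-voom 0 did, beside 6.26% and 3.46% of all genes.

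A list of 13 measured E-box genes of the circuit held 6 of the core genes. Cry1 was listed with the ROR element genes, although its promoter window held an E-box and no match to the ROR element. In edgeR 2 of the 13 changed, Dbp and Nr1d2, which both fell, beside 0.889% of all genes called lower. With DESeq2 4 of the 13 changed, beside 6.26% of all genes, and with weighted limma-voom 3 did, beside 3.46%. Aged mouse 2 was the lowest of the 8 mice in 12 of the 13, and in 11.1% of all genes tested. The exception was Nr1d1, which was lowest in aged mouse 4. With Cry1 added, which was lowest in young mouse 2, the count was 12 of 14 and the median log2 FC was -0.36. The 13 E-box genes had a median log2 FC of -0.37, and of -0.72 without aged mouse 1. In that fit 3 of them changed, beside 444 of 14016 over all genes. Of the ROR element genes described here, Arntl, Npas2 and Nfil3 rose in edgeR, beside 1.17% of all genes called higher. Clock and Cry1 did not pass the thresholds in edgeR, while Cry1 passed with DESeq2. With DESeq2 3 of 10 kidney genes with a known daily rhythm changed, beside 6.26% of all genes. Weighted limma-voom called 2 of them, beside 3.46%. In edgeR 1 of the 10 changed, beside 2.06% of all genes. This was Edn1, the gene of endothelin-1, which measured 5.45, 3.90, 3.80 and 2.29 CPM in aged mice 1 to 4 and 0.945 to 1.27 CPM in young mice (log2 FC 1.74, SE 0.28, edgeR adjusted p = 0.0267). It did not pass without aged mouse 2 or 3 or any 1 young mouse (adjusted p = 0.0530 to 0.103).

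The genes outside the loop whose pattern over the 8 mice was most like that of Arntl, by the mean absolute difference of centered log2 CPM, were Fgb (0.314), Pcdh11x (0.338) and Dpp6 (0.361). Pcdh11x and Dpp6 were scarce, with means below 2 CPM in aged mice. The same held for Tubb4, Pydc4, Cdh24, Aqp8 and Ccr1, named below, and Aqp8 had only 2 counts in aged mouse 4. Among the core genes Npas2 was nearest, at 0.374. The nearest to the mirror image of Arntl were Dbp (0.308), Sh3bp2 (0.325) and Il34 (0.337). For Nr1d1 the most similar were Inhbb (0.317), Tubb4 (0.400) and Tmem86a (0.442), and Inhbb measured 16.4, 7.16, 2.46 and 2.72 CPM in aged mice 1 to 4 and 8.14 to 9.10 CPM in young mice. Nearest to the mirror image of Nr1d1 were Pydc4 (0.378), Irf7 (0.389) and Fcgr1 (0.465). All of them were highest in aged mouse 4, the mouse with the highest leukocyte markers. Irf7 measured 39.2 CPM there and 4.52 to 9.41 CPM in the other mice. The log2 FC of Pydc4, Irf7 and Fcgr1 was 1.17, 0.90 and 0.72 with aged mouse 4. Without it the values were -0.20, -0.18 and -0.08. For Per2 the most similar were Itga10 (0.346), Cdh24 (0.367) and Osgin1 (0.379), and nearest to its mirror image were Aqp8 (0.288), Prlr (0.410) and Ccr1 (0.417). In the core loop Per3 was nearest to Per2, at 0.392.

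Levels were compared between genes as CPM per kilobase of the longest coding transcript. In young mice Nr1d2 was highest with 43.8 ± 1.53 CPM per kilobase (SD, n = 4), followed by Nr1d1 with 29.4 ± 5.61 and Clock with 14.7 ± 0.684. These 3 levels did not overlap between mice, and Per2, Per3, Per1 and Cry2 followed between 11.6 and 7.83, each overlapping the next. Cry1, Arntl and Npas2 were the lowest, with 2.15 ± 0.468, 1.74 ± 0.191 and 1.34 ± 0.289 CPM per kilobase (SD, n = 4), and overlapped in the same way. In aged mice the order ran from Nr1d2 with 25.8 ± 4.58 to Cry1 with 5.13 ± 2.34 CPM per kilobase (SD, n = 4), and every gene overlapped its neighbor. Arntl stood at 11.5 ± 2.63 and Npas2 at 9.40 ± 5.13 CPM per kilobase (SD, n = 4) in aged mice, the fifth and the seventh level of the 10.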

How the data were processed

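RNA was sequenced as 100 bp paired ends after ribosomal RNA depletion. The authors aligned read pairs to mm9 with TopHat2, used HTSeq-count with strand to assign them to RefSeq genes, and deposited the raw counts. CASAVA 1.8.2 and SAMtools are also named in the submitters' processing notes. Other versions are not given in the sources used here. The joint table was used, and 0 of its values differed from the tables of single libraries. Lines naming no gene were left out of library sizes. They held 20.0% to 29.9% of pairs on no gene and 34.3% to 39.1% aligned to several places.

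Counts were analyzed in R 4.3.3 with edgeR 4.0.16 (TMM, filterByExpr with a minimum count of 10, quasi-likelihood test, all 8 mice, no covariate, Benjamini-Hochberg over 13944 genes). The SE was |log2 FC| over the root of F. Log2 CPM used a prior count of 2. A floor of 3 counts equals 0.151 to 0.202 CPM and covers counting error only. The 10 genes and the gene lists were chosen with earlier results of these data known. Named genes were the 10 genes, listed clock genes past the adjusted threshold and the 3 nearest patterns in each direction. Genes that share exonic bases with a clock gene were named too, as were Zbtb16 and Fkbp5, chosen after their values were seen. One listed gene is not reported here.

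Coordinates and transcript lengths came from GENCODE on NCBIM37, which is mm9. Replicates were separate mice per the labels. No library was a duplicate, as the smallest chi-square per gene within a group was 9.43. Alternatives were other scalings, filters, DESeq2 1.42.0, limma-voom 3.58.1 with sample quality weights, a replicate block and leaving out each mouse. The spread comparison and the E-box list with Cry1 were chosen after seeing the data. The test was checked on a simulated table of 13825 genes, 200 of them given a log2 FC of 2 in size. In that table edgeR found 93.0% of the 200 genes, and 5.10% of its calls were false. In the measured counts the median ratio of aged to young standard deviation was 2.03 over all genes tested. Whether the rates of the simulated table hold for the measured counts was not tested.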

Additional observations from a re-analysis of the deposited data

Results flagged for a closer look

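Dixon's test was applied to 18 genes in both age groups, which are 36 groups of 4 mice, and in 4 of these groups 1 mouse stood apart. Chance alone flags about 1 in 20 groups. Aged mouse 4 was lowest in Arntl at 22.2 CPM, with a gap of 0.883 of the range of the aged group. Aged mouse 1 was highest in Per1 at 168 CPM (0.836 of the range) and in the glucocorticoid response gene Zbtb16 at 149 CPM (0.851 of the range). Young mouse 3 was lowest in Cry2 at 27.0 CPM (0.901 of the range).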

How the results depend on the processing

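Of the 10 core clock genes, 3 or 4 passed with every other scaling, filter and tool, and between 1 and 4 with 1 mouse left out. Over all genes 287 passed, 488 with library size only, 873 with DESeq2, 483 with limma-voom with sample quality weights and 8 to 733 with 1 mouse left out. Of the 26 other clock genes 3 passed, 9 with DESeq2, 5 with weighted limma-voom and 0 to 7 with 1 mouse left out. With the replicate number as a block 130 of all genes passed, and 3 of the core genes. Deviations of mice with the same number correlated at -0.03 to 0.21, and not all over 0.1. In 3 of 4 cases an aged mouse correlated best with the young mouse of its own number, a hint from the data, while aged mouse 4 did so with young mouse 2. No label ties the numbers, so the mice were taken to share only a number. The log2 FC of Cry2 turned to -0.0257 and that of Per1 to -0.0905 with weighted limma-voom, which changes both the tool and the weight of each mouse. With 1 mouse left out, Cry2 ran from -0.0450 to 0.31, Per1 from -0.22 to 1.02 and Per2 from -0.55 to 0.10, Cry2 and Per1 turning without aged mouse 1 and Per2 without aged mouse 2. The cause of these changes was not tested. Pairs of core genes past the adjusted threshold numbered 0 under each alternative tried, the block included. With 1 mouse left out, 8 to 10 core genes exceeded the ratio of 2 in spread, beside 34.2% to 55.6% of all genes. With 4 mice per group the smallest exact permutation p of a pair within groups is 0.00174. The SE of the log2 FC was 0.54 for Per1, 0.55 for Per2 and 0.63 for Nr1d1. The smallest difference that could be detected in these genes was not computed.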
